A study of Rattus norvegicus with 30 samples.

Results

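The promoter capture of the ipsilateral thalamus was compared with that of the perilesional cortex in the same 10 rats. The comparison used 20 of the 30 methyl-binding domain sequencing (MBD-seq) libraries of the series, and it covered 19758 of 20196 Ensembl gene identifiers, those with a single set of promoter counts in both tissue tables. All animals were adult male Sprague-Dawley rats killed at 3 months after the operation. Rats 1 to 5 were sham operated, with anaesthesia and craniectomy but no impact, and rats 6 to 10 had traumatic brain injury (TBI) by lateral fluid percussion. Each rat gave 1 thalamus and 1 cortex library. Both tissues were whole dissected pieces that hold many cell types, and in the TBI rats the cortex lay beside the lesion. A difference in the make-up of cells and a difference in methylation within a cell type cannot be told apart in such pieces. For sequencing, the methods of the study point to its RNA protocol. There the cortex and hippocampus shared an instrument and the thalamus was run on another, although the labels of all libraries give the Genome Analyzer. Tissue and any such difference in sequencing cannot be told apart. This also holds for the results below in which the hippocampus lies with the cortex. The identifiers were not paired with gene names here, so the promoters are described by level, direction and spread, and the tissue labels were not checked against marker genes.

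DNA methylation in mammals is placed mainly on cytosines that precede guanines (CpG sites). In promoters rich in CpG, dense methylation usually accompanies a silent gene, and neurons and glia of different brain regions carry different methylation at many regulatory regions. In MBD-seq, sheared DNA is bound by a methyl-CpG binding domain, and the bound fragments are sequenced. A promoter with few methylated CpG sites gives few reads, and a promoter with many gives many, so that the count of a window follows both its methylation and its CpG content. Between tissues of the same rat the CpG content is shared. The count gives no percentage of methylation at a site. The level of a promoter is given below in counts per 1000000 (CPM) after scaling with the trimmed mean of M values (TMM), and a difference is the log2 of thalamus over cortex.

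Thalamus libraries were deeper than cortex libraries. The total promoter count ranged from 1862708 to 3992056 (median 2020053) in the cortex and from 2675177 to 4227800 (median 3198544) in the thalamus, and it was higher in the thalamus in 9 of 10 rats (exact two-sided sign-flip permutation test, p = 0.0039, adjusted p = 0.0078 over 4 library measures). The share of promoters without a count was nonetheless higher in the thalamus in 10 of 10 rats, at 0.247% ± 0.224 against 0.0972% ± 0.0235 (SD, n = 10, exact p = 0.00195, the smallest that 10 pairs can give, adjusted p = 0.0078). The mean difference of 0.150 percentage points was 0.0844 without rat 6. The ratio of the 90th to the 10th percentile of the promoter levels was 10.8 ± 6.79 in the thalamus and 7.57 ± 4.19 in the cortex (SD, n = 10), higher in 8 of 10 rats, a difference of 3.27 that did not pass the test (exact p = 0.066, adjusted p = 0.089) and was 2.13 without rat 6. It passed the unadjusted threshold without rat 4 (4.29, exact p = 0.0078) and without rats 4 and 6 (3.14, exact p = 0.0156). The share of counts in the top 5% of promoters was 31.7% ± 7.72 and 33.8% ± 11.9 (SD, n = 10, exact p = 0.668, adjusted p = 0.668). The mean difference of −2.09 percentage points turned to 0.751 without rat 10 and to 1.33 without rats 1 and 10.

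Several libraries stood apart from their own tissue. The cortex libraries of rats 4 and 6 had correlations (Pearson's r of log2 CPM across promoters) of 0.967 and 0.960 with the mean of the hippocampus libraries, against 0.906 and 0.883 with the mean of the other cortex libraries. The cortex library of rat 10 had an r of 0.721 with the other cortex libraries, and those of cortex rats 1 and 10 held 41.9% and 59.4% of their counts in the top 5% of promoters. The thalamus library of rat 6 had the widest spread of levels, with a percentile ratio of 29.3. Some of the results that rest on these rats are given with and without them. The results by bin of level were not refitted without them.

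Of 19512 promoters tested with the rat as a block, 5281 (27.1%) differed between thalamus and cortex in the quasi-likelihood test of edgeR at an adjusted p under 0.05. Capture in the thalamus was higher at 2300 promoters (11.8%) and lower at 2981 (15.3%). Most differences were small. The median log2 difference was 0.41 among the promoters called higher and −0.67 among those called lower, with a median standard error of 0.13 over all tested promoters. The median over all tested promoters was −0.01, and the 5th and 95th percentiles were −0.86 and 0.45. Only 65 promoters (0.333%) were called and over 2-fold higher, whereas 672 (3.44%) were called and over 2-fold lower. Over 4-fold, 1 promoter was higher and 68 were lower, and over 8-fold 14 were lower and 0 higher.

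The direction of the called promoters was shared by most rats. Among the calls, 799 of those higher and 881 of those lower had the same sign in 10 of 10 rats, and 5009 of 5281 (94.8%) had it in at least 8. At 146 promoters (0.748%) all thalamus libraries lay above all cortex libraries, and at 186 (0.953%) all lay below. Rat 4 followed the calls least, with 76.6% of the promoters called higher and 74.0% of those called lower on the side of the call. When rats 4 and 6 were left out, 6578 of 19599 promoters (33.6%) were called, 3071 higher (15.7%) and 3507 lower (17.9%). Of the calls made in all rats, 2033 higher and 2648 lower were called again in these 8 rats, and 5281 of 5281 kept their sign. Without rats 1 and 10, 3503 promoters were called (1699 higher and 1804 lower). The split of the calls moved with the scaling: 43.6% of them were higher with TMM, and 28.5% (1428 higher and 3587 lower) with upper quartile factors, which moved the median over all promoters from −0.01 to −0.10.

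**Figure D1:**
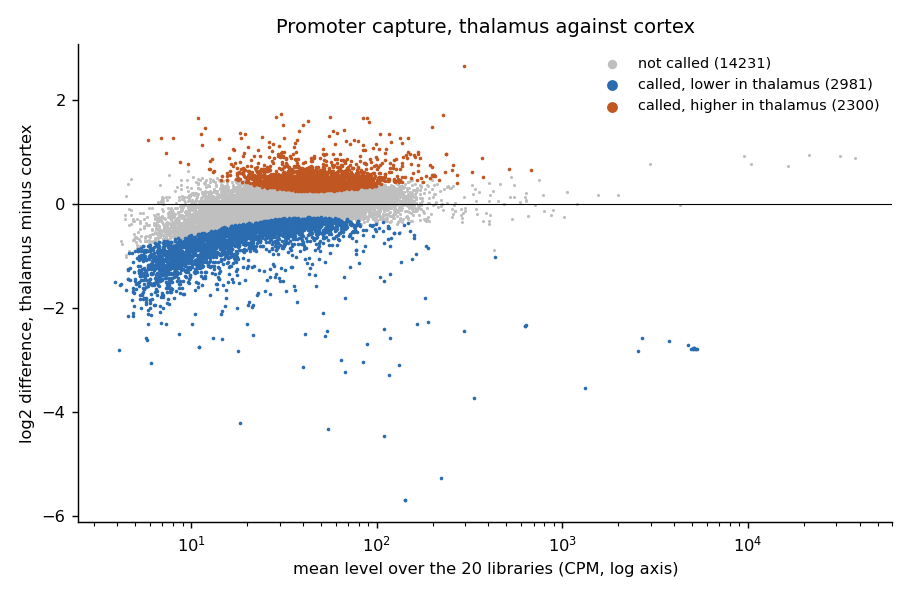
Log2 difference between thalamus and cortex (vertical axis) against the mean level over the 20 libraries in CPM (horizontal log axis) for the 19512 tested promoters, 1 point each, coloured by call in the rat-blocked test. The cloud bends below 0 at low levels, where most of the 672 promoters lower by over 2-fold lie, and 1 promoter lies above 2.

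The direction of the difference varied with the level of capture. When the promoters were split by mean level into 10 bins of equal size, 48.7% of the lowest bin (3.91 to 11.9 CPM) were called lower and 0.512% higher, with a median log2 difference of −0.69. In bin 7 (40.4 to 49.0 CPM), 7.74% were called lower and 21.8% higher, and in the highest bin 4.25% and 13.6%. The median difference of the lowest bin was below 0 in 8 of 10 rats, from −1.39 in rat 10 to 0.05 in rat 4. After rat 10 it was lowest in rats 6, 1 and 5, at −1.14, −1.09 and −0.96. The lowest bin held 490 of the 672 promoters lower by over 2-fold. Over all promoters of this bin the median was 22.0 counts per cortex library and 19.7 per thalamus library.

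TMM was then replaced by a loess curve fitted over the level in each library, which removes any trend with level from both tissues. With these offsets, 4470 promoters were called (22.9%), 2174 higher (11.1%) and 2296 lower (11.8%). The share called lower then ranged from 6.71% in the lowest to 16.3% in the highest bin, and the share called higher from 8.09% to 13.6%. The loess fit kept 73.3% of the higher and 51.0% of the lower calls, and 0 promoters were called in opposite directions. Over 2-fold, 84 were called higher and 139 lower, of which 55 and 131 were over 2-fold with TMM as well. With all libraries thinned to the total of the smallest, 1954 promoters were called higher and 1905 lower. The part of the unequal depth and of the spread of levels in single libraries in the trend with level was not otherwise tested.

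**Figure D2:**
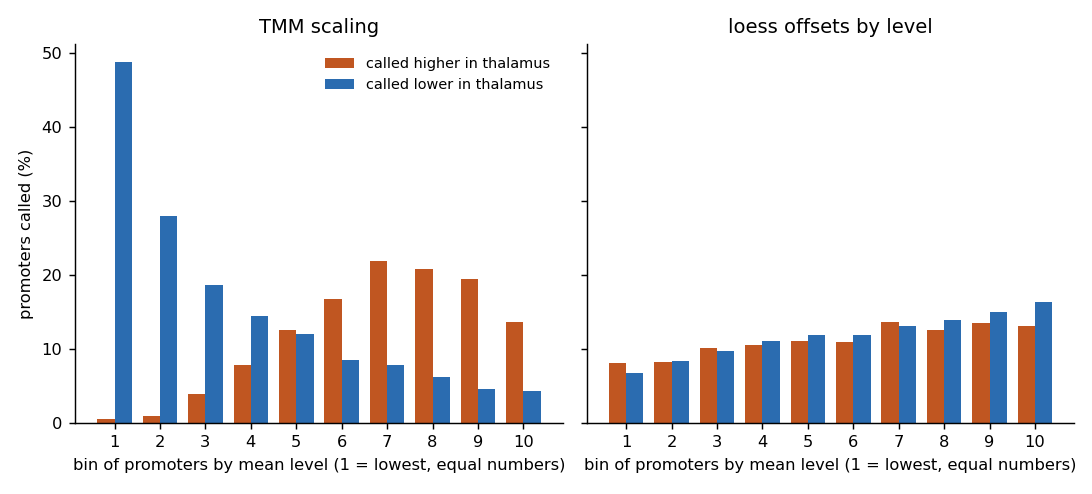
Percent of promoters called higher (orange) and lower (blue) in the thalamus by bin of mean level (10 bins of equal size), with TMM scaling (left) and with loess offsets by level (right). With TMM the lower calls fall from 48.7% to 4.25% from the lowest to the highest bin. With loess offsets they stay between 6.71% and 16.3%.

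Sham and TBI rats gave separate readings of the tissue difference, since they share no animal. In the 5 sham rats 765 of 19488 promoters (3.93%) were called, 320 higher (1.64%) and 445 lower (2.28%). In the 5 TBI rats 2905 of 19608 (14.8%) were called, 1244 higher (6.34%) and 1661 lower (8.47%). Both counts moved with single rats, and the cause of the gap between the groups was not tested. Without rat 4, which left 4 sham rats, 2972 promoters were called, and without rats 1, 2, 3 and 5 in turn the counts were 263, 199, 240 and 484. Among the TBI rats, 1731 were called without rat 6, 1516 without rat 8, 1362 without rat 9, 2091 without rat 10 and 3338 without rat 7. Without the rat as a block, 1217 promoters were called in the sham and 150 in the TBI rats. With TMM 41.8% of the sham and 42.8% of the TBI calls were higher, with upper quartile factors 31.1% and 28.4%, with DESeq2 29.2% of the sham calls, and with library totals 23.6% of the TBI calls. Without rat 10 the majority of the TBI calls turned, with 1104 higher and 987 lower (52.8% higher).

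The promoters called in one group of rats had the same direction in the other. Among 19473 promoters tested in both, 319 of 320 called higher in the sham rats were higher in the TBI rats, where 259 were also called, and the sham rats had a median log2 difference of 0.73 at these promoters, the TBI rats one of 0.65. All 435 called lower in the sham rats were lower in the TBI rats, 358 of them called, with medians of −1.34 and −1.13. Read the other way, 1229 of 1244 promoters called higher and 1562 of 1601 called lower in the TBI rats had the same sign in the sham rats. In total 617 promoters were called in both groups in the same direction and 0 in opposite directions. For comparison, 50.4% of all tested promoters were higher in the thalamus of the TBI rats and 48.9% in that of the sham rats.

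Promoters over 2-fold apart in one group of rats were read in the other. Of 55 promoters called and over 2-fold higher in the sham rats, 55 were higher in the TBI rats and 44 were over 2-fold higher, with median log2 differences of 1.27 in sham and 1.25 in TBI rats. Of 300 called and over 2-fold lower in the sham rats, 300 were lower in the TBI rats and 239 were over 2-fold lower, with medians of −1.59 and −1.40. The reading was also made the other way. Of 87 promoters called and over 2-fold higher in the TBI rats, 87 were higher and 47 were over 2-fold higher in the sham rats, where their median was 1.04. Of 625 called and over 2-fold lower in the TBI rats, 623 were lower and 355 were over 2-fold lower in the sham rats, with medians of −1.34 in TBI and −1.10 in sham rats. Across the 19473 promoters, which share tissue, depth and level between the 2 readings, Pearson's r of the log2 differences was 0.84 and Spearman's rho was 0.77. Promoters are not independent replicates.

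**Figure D3:**
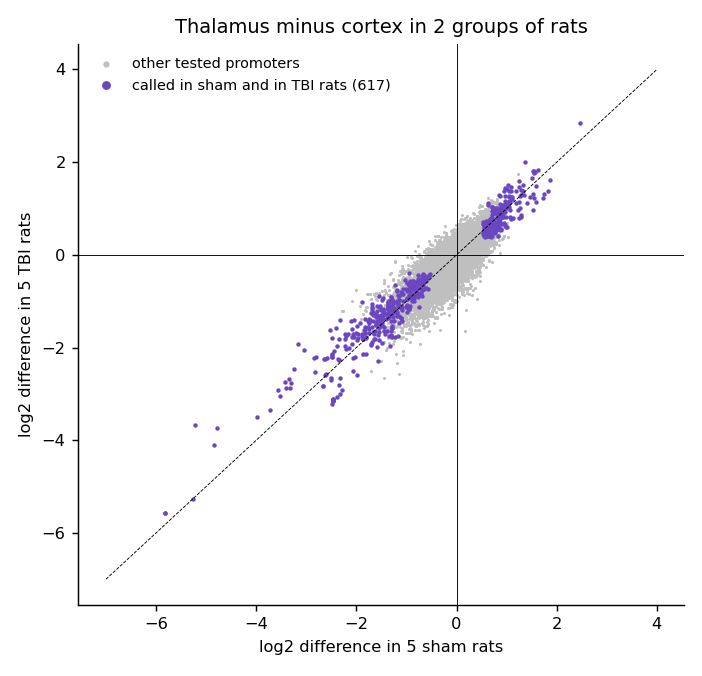
Log2 difference between thalamus and cortex in the 5 sham rats (horizontal axis) and in the 5 TBI rats (vertical axis), 1 point per promoter tested in both, with the line of equal values dashed. The 617 promoters called in both groups (purple) lie in the quadrants of equal sign.

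The tissue difference itself was then compared between TBI and sham rats by the interaction of tissue and injury. The interaction was called at 0 of 19512 promoters (0%) by the quasi-likelihood test of edgeR, with a smallest adjusted p of 0.999938, and at 282 promoters the p before adjustment was under 0.05 (137 with a positive and 145 with a negative interaction, the log2 difference of thalamus minus cortex in TBI minus that in sham rats). DESeq2 and limma voom with sample quality weights also called 0 and gave 121 and 661 promoters at the unadjusted threshold. All of these counts at the unadjusted threshold were fewer than evenly spread p-values would give. In counts simulated on these promoters, the interaction test recovered 4.48% of 1.5-fold, 49.3% of 2-fold and 87.9% of 3-fold changes. The simulated counts followed the trend of the variance with level and did not model the libraries that stand apart, so recovery in the real counts may be lower. At this depth and with 5 rats a group, most changes of 1.5-fold in the tissue difference would not be detectable.

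The 65 promoters over 2-fold higher in the thalamus had a median log2 difference of 1.23. They were chosen on all 10 rats, so that counts in parts of the same libraries describe them and test nothing, here and in the groups of lower promoters that follow. Of the 65, 64 were called in the TBI and 60 in the sham rats, 51 had the same sign in 10 of 10 rats and 29 did not overlap between the tissues. Among all 19512 tested promoters these counts were 2862, 752, 1731 and 332. All 65 were called with loess offsets and all 65 without rats 4 and 6. The median level over these promoters was 47.4 to 84.5 CPM (median 60.2) in the thalamus libraries and 19.8 to 29.6 CPM (median 25.4) in the cortex libraries. The highest thalamus value came from rat 6. In the hippocampus of the same rats, the level was 18.4 to 32.0 CPM (median 23.4). The hippocampus libraries were scaled on their own and had a median log2 difference from the cortex of −0.36 over all tested promoters. The level was closer to the cortex than to the thalamus at 55 of 65 promoters, against 9670 of all 19512. It lay below both tissues at 34 of the 65, and there the cortex, as the lower tissue, was the nearer by construction.

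Among the promoters higher in the thalamus, the largest difference was at ENSRNOG00000007049. The rule for naming promoters required the same sign in 10 of 10 rats, so that count is no separate result for any named promoter. Its level was 38.4 to 167 CPM (median 86.4) in the cortex, 311 to 856 CPM (median 471) in the thalamus and 62.5 to 148 CPM (median 114) in the hippocampus. The lowest thalamus library lay above the highest cortex library, that of rat 4. The fitted log2 difference was 2.66 ± 0.19 (SE, 6.32-fold, adjusted p = 1.13e-11 by edgeR, higher in 10 of 10 rats), with 2.47 in the sham and 2.85 in the TBI rats. Over 23 alternative settings the log2 difference lay between 2.49 and 2.80, and the largest adjusted p was 1.53e-07.

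The second promoter named by the rule, that of ENSRNOG00000012742, had a lower level in every tissue. It was 6.44 to 27.3 CPM (median 12.4) in the cortex, 33.7 to 91.1 CPM (median 44.0) in the thalamus and 4.71 to 32.0 CPM (median 10.4) in the hippocampus. Again the tissues did not overlap, with cortex rat 10 the highest cortex library and thalamus rat 6 the highest thalamus library. The log2 difference was 1.73 ± 0.15 (SE, 3.32-fold, adjusted p = 5.33e-10 by edgeR, higher in 10 of 10 rats), with 1.86 in the sham and 1.62 in the TBI rats. It lay between 1.63 and 2.03 over 23 alternatives, and the largest adjusted p was 1.35e-06.

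The 672 promoters over 2-fold lower in the thalamus fell into classes by their mean cortex level, a split made after the values were seen and given without a test. The largest class, 524 promoters under 20 CPM in the cortex, had a median log2 difference of −1.24. The median level of these promoters was 7.24 to 23.1 CPM in the cortex libraries, with rats 10 and 1 the highest at 23.1 and 14.95 CPM and the other 8 at 9.52 CPM or less. It was 1.23 to 6.19 CPM in the thalamus libraries, with rat 6 the lowest, and 4.27 to 8.71 CPM in the hippocampus libraries. The hippocampus was closer to the cortex than to the thalamus at 175 of 524, against 9670 of all 19512. Its median log2 difference over the 524 was −0.87 from the cortex and 0.36 from the thalamus. Over all tested promoters these were −0.36 and −0.32. This shift was not removed, so the counts cannot place the hippocampus nearer to either tissue. Of the 524, 243 had the same sign in 10 of 10 rats, 56 did not overlap between the tissues, and 156 were called with loess offsets. Among all 19512 tested promoters these counts were 1731, 332 and 4470. Leaving out rats 1 and 10 reduced the number of promoters lower by over 2-fold, over all levels, from 672 to 407.

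The second class held 131 promoters at 20 to 1000 CPM in the cortex, with a median log2 difference of −1.41. Here 110 had the same sign in 10 of 10 rats and 71 did not overlap between the tissues. All 131 were called in the TBI rats, 117 were called in the sham rats, and 129 were called with loess offsets. Among all 19512 tested promoters these counts were 1731, 332, 2862, 752 and 4470. The median level over these promoters was 26.4 to 42.9 CPM in the cortex, 7.39 to 14.5 CPM in the thalamus and 24.0 to 49.1 CPM in the hippocampus. The hippocampus was closer to the cortex than to the thalamus at 108 of 131, against 9670 of all 19512. It was above the cortex at 78, against 5851 of all 19512. Cortex rats 4 and 6 were the libraries close to the hippocampus. Their mean log2 level was above that of the 6 cortex libraries outside rats 1, 4, 6 and 10 at 108 of 131 promoters. Among all 19512 tested promoters it was above at 9393. All 131 were called without these 2 rats, against 6578 of 19599 tested.

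The third class held 17 promoters at 1000 CPM or more in the cortex, with a median log2 difference of −2.78. At 14 of them the cortex libraries of rats 1 and 10 were the highest of the 10. The lowest pairwise r of log2 CPM among these 14 over the cortex libraries was 0.79. The 14 were picked by these libraries, so a high r was largely fixed by the choice and is no separate result. Among all 17 the lowest pairwise r was −0.80. The 17 promoters took 22.3% of the matched promoter counts of cortex rat 1 and 48.5% of those of cortex rat 10, against 1.84% to 5.13% in the other cortex libraries and 0.226% to 1.43% in the thalamus. All 17 were called lower without rats 1 and 10 as well, against 1804 of 19462 tested, with a median log2 difference of −2.13. The median level over the 17 was 198 to 812 CPM (median 374) in the hippocampus libraries. The thalamus and cortex libraries had medians of 322 and 1823 CPM. The hippocampus was closer to the cortex than to the thalamus at 3 of 17.

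**Figure D4:**
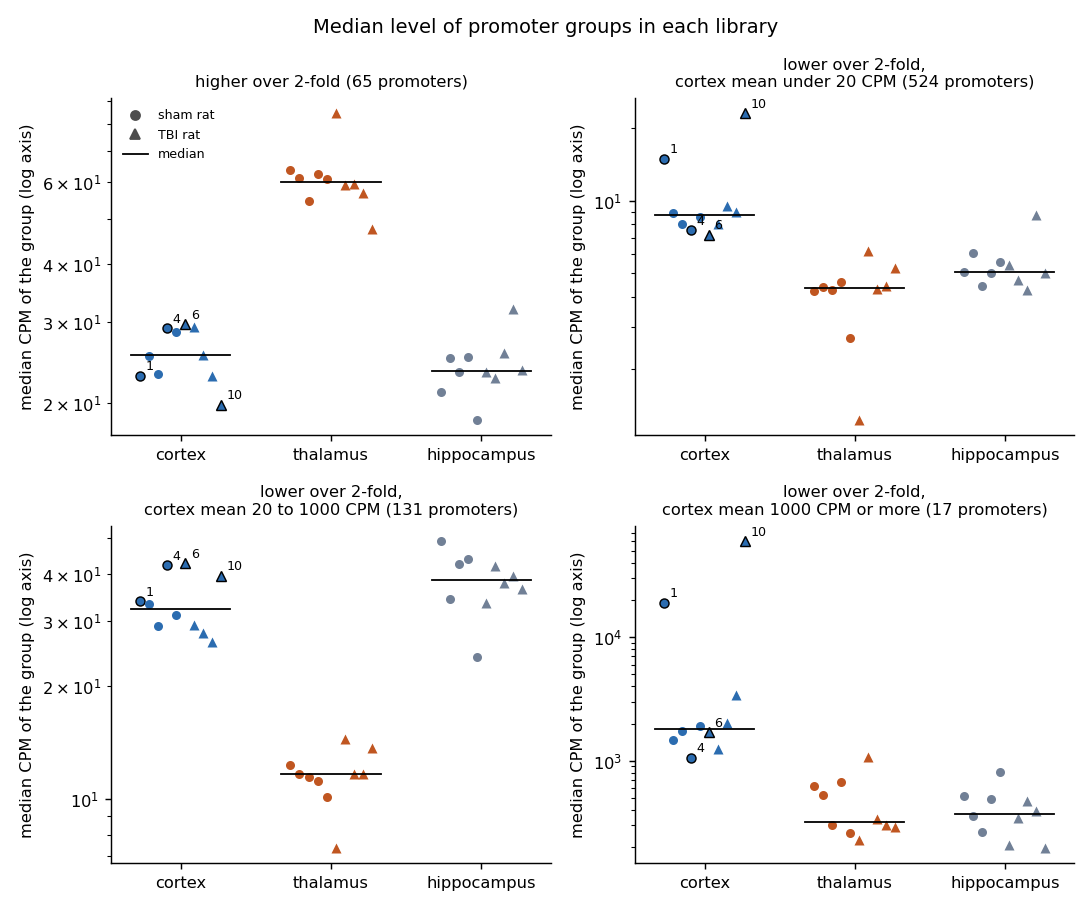
Median level in CPM (vertical log axis) of 4 groups of promoters in each of the 10 cortex, 10 thalamus and 10 hippocampus libraries, with circles for sham rats, triangles for TBI rats, and a line at the median. Cortex rats 1, 4, 6 and 10 are outlined and numbered. The hippocampus libraries were scaled on their own. As plotted, they lie with the cortex in the groups with 65 and 131 promoters, and nearer to the thalamus in those with 524 and 17. Over all tested promoters their median log2 difference was −0.36 from the cortex and −0.32 from the thalamus. This shift is not removed here, so the place of the hippocampus in the group with 524 cannot be told.

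The strongest differences were at promoters with less capture in the thalamus. At 12 promoters between 20 and 1000 CPM in the cortex (11 sets of counts), the thalamus was over 8-fold lower, with a median log2 difference of −3.98. The median level over these promoters was 69.8 to 527 CPM in the cortex, 7.01 to 11.2 CPM in the thalamus and 175 to 560 CPM in the hippocampus. For comparison, the median level of all tested promoters was 30.2 to 34.3 CPM in the cortex. As a group these promoters were strongly captured in cortex and hippocampus and weakly in the thalamus. At least 1 of them had a cortex mean of only 35.0 CPM. The hippocampus was above the cortex at 12 of 12, against 5851 of all 19512 tested. Cortex rats 4 and 6 had medians of 527 and 403 CPM. Their mean log2 level was above that of the 6 cortex libraries outside rats 1, 4, 6 and 10 at 12 of 12 promoters. Among all 19512 tested promoters it was above at 9393. Cortex rats 10 and 1 had medians of 69.8 and 98.9 CPM, and their mean log2 level was below that of the same 6 libraries at 12 of 12. Among all 19512 it was above at 10274. All 12 were called in the sham rats, in the TBI rats, with loess offsets and without rats 4 and 6, and none overlapped between thalamus and cortex. Among all tested promoters 752, 2862, 4470 and 6578 were called in the same order, and 332 did not overlap.

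The promoter of ENSRNOG00000027365, whose counts were identical to those of 1 other identifier, had the largest difference of all. Its level was 85.1 to 782 CPM (median 212) in the cortex, 2.87 to 6.88 CPM (median 3.84) in the thalamus and 202 to 875 CPM (median 632) in the hippocampus. Among the cortex libraries rats 4 and 6 were the highest and rats 1 and 10 the lowest, and all were far above the thalamus. The log2 difference was −5.71 ± 0.27 (SE, 52.2-fold lower, adjusted p = 4.87e-16 by edgeR, lower in 10 of 10 rats), with −5.83 in the sham and −5.57 in the TBI rats, and it was −5.22 without rats 4 and 6. It lay between −6.11 and −5.22 over the 22 alternatives that kept the promoter.

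The promoter of ENSRNOG00000018173 had the next largest difference. Its level was 111 to 1148 CPM (median 345) in the cortex, 4.34 to 11.9 CPM (median 9.89) in the thalamus and 358 to 1347 CPM (median 966) in the hippocampus. The order of the cortex libraries was the same at its ends, with rats 4 and 6 the highest and rats 1 and 10 the lowest. The log2 difference was −5.28 ± 0.25 (SE, 38.7-fold lower, adjusted p = 4.87e-16 by edgeR, lower in 10 of 10 rats), with −5.26 in the sham and −5.28 in the TBI rats. It lay between −5.53 and −4.87 over 23 alternatives.

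**Figure D5:**
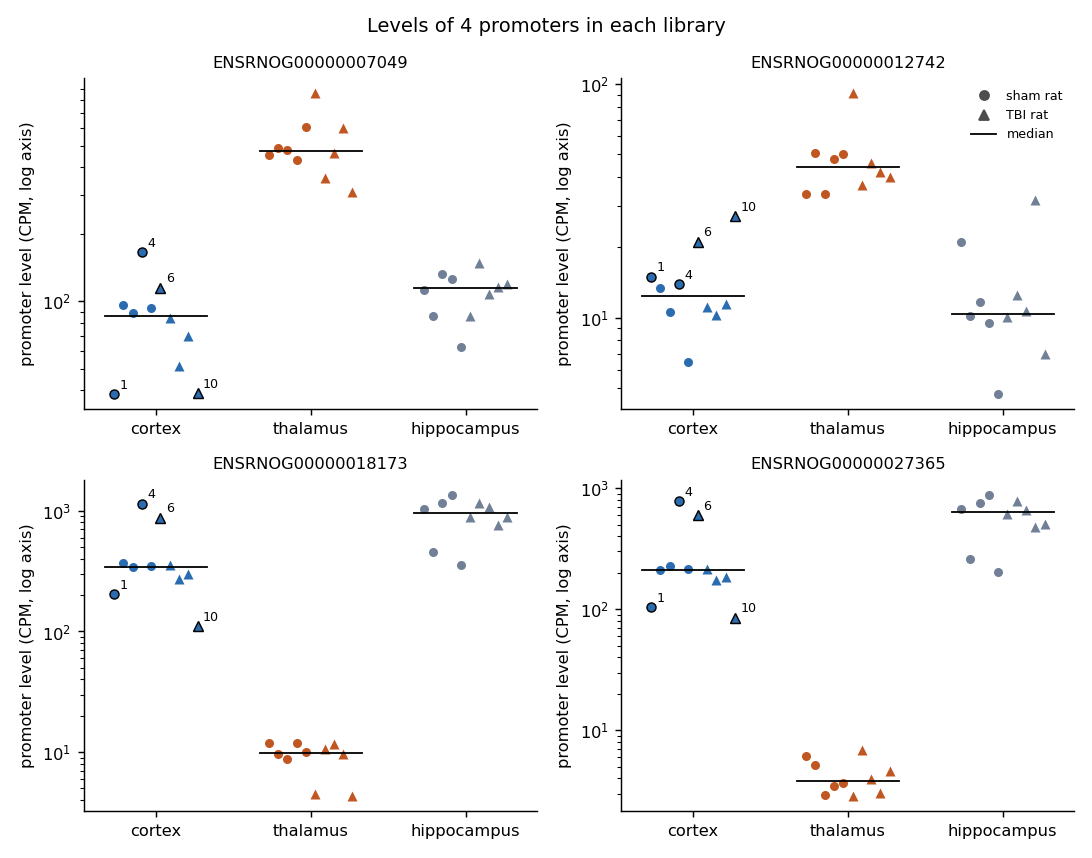
Level in CPM (vertical log axis) of 4 promoters in each cortex, thalamus and hippocampus library, with circles for sham rats, triangles for TBI rats, a line at the median, and cortex rats 1, 4, 6 and 10 outlined and numbered. In each panel the thalamus and cortex libraries do not overlap, and the hippocampus lies with or above the cortex.

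Gene bodies of the same identifiers were counted separately and held few reads. Of 26404 matched gene bodies only 495 could be tested, with a median of 11 counts per cortex and 21.7 per thalamus library, and 108 (21.8%) were called higher and 104 (21%) lower in the thalamus. For 222 of them the promoter was tested too, and of these 89 gene bodies were higher (32 called) and 133 lower (44 called). Of 22 with a promoter called higher, 14 gene bodies were higher (9 called) and 8 were lower (0 called). Of 30 with a promoter called lower, 25 gene bodies were lower (16 called) and 5 were higher (0 called). Most of the strongest pairs came from the very high class, since 15 of the 16 promoters over 2-fold lower with a tested gene body had 1000 CPM or more in the cortex. The promoter window reaches into the start of the gene, so the 2 counts may share reads. The gene bodies of the 4 named promoters had 3 counts or fewer in all cortex libraries together and 0 in the thalamus, too few to test.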

How the data were processed

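MBD-seq was done on 30 tissue pieces of 10 rats, with capture by MethylMiner and elution in high salt. The authors mapped the reads to the Rnor_5.0 genome with STAR without splicing and used Repitools in R 3.1.0 to count reads per promoter (a window upstream of and just past the transcription start), exon and gene body. The deposited values were whole-number counts per window without normalization. All 60 columns of the promoter and gene body tables were matched to samples by their labels. Each table held 22307 promoter rows, and 438 identifiers with several sets of counts were left out, as were the exon tables.

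Promoters were kept with filterByExpr (minimum count 10, minimum total count 15), scaled by TMM and tested with the quasi-likelihood F test of edgeR 4.0.16 in R 4.3.3, with rat and tissue in the model and Benjamini-Hochberg adjustment over all tested promoters (threshold 0.05). Same-numbered libraries come from the same animal by the rat number of the labels. The correlation of their deviations from the group mean had a median of 0.11 (−0.197 to 0.756, 5 of 10 rats over 0.1). The biological coefficient of variation was 0.185. CPM were put on the log scale with 0.5 added. Single library measures were compared by exact sign-flip permutation over 1024 assignments. Replicates differed by more than sampling noise, with a lowest mean chi-square of 2.07 over 40 pairs, so none was counted as a repeat. In counts simulated on 19482 promoters, the comparison of all rats recovered 68.7% of 1.5-fold, 97% of 2-fold and 100% of 3-fold changes. It called 0 when none were changed. When 200 were changed, 11 of its 187 calls were false. Each setting was simulated in a single run. The simulated counts followed the trend of the variance with level and did not model the libraries that stand apart, so these shares may be too favourable.

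The members, groups and tests were chosen with earlier results of these data known. Alternatives were DESeq2 1.42.0, limma 3.58.1 voom with sample quality weights, no rat block, library totals, loess offsets, upper quartile factors, other count filters, thinned counts, identical counts kept once, leaving out each rat, and leaving out rats 4 and 6 or 1 and 10. Leaving out rats 1, 4, 6 and 10 together was added after the data were seen. The promoters named were the 2 most different in each direction among those called, with a mean of at least 5 CPM and the same sign in 10 of 10 rats, by identifier because no table paired identifiers with names. For the same reason gene lists, marker lists and promoter sequences were not used here. Figures were drawn with matplotlib 3.10.9 in Python 3.11.15.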

Additional observations from a re-analysis of the deposited data

Results flagged for a closer look

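In groups of 5 libraries, a value was picked out when the highest or lowest library lay farther from the next than 0.71 of the whole range of the group. Chance alone picks about 1 in 20 groups, and 15 of 44 were picked here. Of these, 12 were totals or levels of 6 libraries. In the cortex of TBI rat 10 the total count of 3992056 stood apart, as did the median level of 60049 CPM over the 17 promoters of 1000 CPM or more and that of 23.1 CPM over the 524 low promoters lower in the thalamus. In the cortex of sham rat 1 the same 2 medians were 19012 and 14.95 CPM. In the cortex of sham rat 4 the median over the 12 promoters lower by over 8-fold was 527 CPM.

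In the thalamus of TBI rat 6 the ratio of the 90th to the 10th percentile was 29.3, the top 5% of promoters held 50.9% of the counts, and 0.876% of promoters had no count. In the thalamus of sham rat 5 the percentile ratio was 13.9 and the median over the 524 low promoters was 2.69 CPM. In the thalamus of TBI rat 7 the median over the 17 very high promoters was 1067 CPM.

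Among the named promoters and within the 5 TBI rats, the log2 difference of ENSRNOG00000007049 was lowest in rat 7 (2.08, with 1.37 in sham rat 4), that of ENSRNOG00000012742 was lowest in rat 10 (0.55), and that of ENSRNOG00000018173 was lowest in rat 6 (−7.45). The naming rule required the same sign in 10 of 10 rats, so each had the sign of its group in these rats by choice.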

How the results depend on the processing

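The count of promoters called in all rats stayed within 1.5 times its value of 5281 in 22 of 23 alternatives and was 3503 without rats 1 and 10. Leaving out each rat in turn gave 4163 to 7132 calls in all rats, 199 to 2972 in the sham rats and 1362 to 3338 in the TBI rats. In the sham rats 1217 promoters were called with no replicate block, 505 with upper quartile factors and 2739 with voom, against 765. In the TBI rats 150 were called without the block of the rat, 1514 by DESeq2, 1302 with library totals and 1563 with thinned counts, against 2905. Without the pairing by rat, 3684 promoters were called in all rats. Thinning in all rats gave 1954 higher and 1905 lower calls. The count lower by over 2-fold, 672, was 139 with loess offsets, 148 with at least 10 counts in every library, 407 without rats 1 and 10 and 345 without rats 1, 4, 6 and 10. The 4 named promoters kept their direction and their calls in every alternative that tested them, and the interaction was called at 0 promoters in 23 of 23 alternatives, with 110 to 661 at an unadjusted p under 0.05. The percentile ratio differed by 3.14 without rats 4 and 6 (exact p = 0.0156) and by 2.13 to 4.29 when each rat was left out (exact p = 0.0078 without rat 4). The difference in the share of counts in the top 5% of promoters turned positive, at 0.751 percentage points without rat 10, 1.33 without rats 1 and 10 and 2.48 without rats 1, 4, 6 and 10, and lay between −3.08 and 0.751 when each rat was left out. The causes were not tested. A fit with offsets by CpG content was not run, because no sequence could be matched to the identifiers. Promoters of the lowest level bin rest on a median of 22 counts per cortex library, which limits the differences that can be seen there.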

Other observations

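The position of the hippocampus was also read over all called promoters. The hippocampus, with its libraries scaled on their own, was closer to the cortex than to the thalamus at 1809 of 2300 promoters called higher. At those called lower it was closer to the cortex at 999 of 2981, against 9670 of 19512 tested. It lay below both tissues at 1452 of the 2300, 1419 of the 2981 and 12134 of the 19512. Below both, the hippocampus is nearer to the lower tissue by construction, so these counts cannot place it nearer to either. The median level of the promoters called higher was 40.2 CPM in the cortex, 53.6 CPM in the thalamus and 35.2 CPM in the hippocampus. That of the promoters called lower was 21.1, 12.8 and 12.3 CPM in the same order.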
